A study of Mus musculus with 12 samples.

Results

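The members described here are the promoter peaks of noncoding RNA genes in microglia, the resident immune cells of the brain, as marked by ChIP-seq for the polymerase subunit Rpb2 (written Rbp2 by the study) and for H3K27Ac. In ChIP-seq, an antibody pulls down a protein with the DNA it occupies, and sequencing that DNA maps its position as a peak of reads. Rpb2 is a core subunit of RNA polymerase II, and H3K27Ac is acetylation of lysine 27 on histone H3, a mark of promoters and enhancers in use. A peak was taken when its centre lay within 1000 bp of the nearest transcription start site (TSS) and the deposited annotation gave that gene a type other than protein-coding; genes whose names start with Mir or Snor were left out. This gave 416 of 26706 Rpb2 peaks, at 361 genes, and 460 of 55862 H3K27Ac peaks, at 453 genes. No signal level entered the choice. By gene type, the Rpb2 members were 377 ncRNA peaks, 35 pseudogene peaks, 2 snRNA peaks and 2 scRNA peaks. The H3K27Ac members were 420 ncRNA, 38 pseudogene, 1 snRNA and 1 rRNA peak. The farthest members lay 998 bp (Rpb2) and 1000 bp (H3K27Ac) from their TSS, and the nearest peaks of such genes outside the limit lay at 1018 and 1009 bp.

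Microglia came from 2-mo-old C57BL/6J mice, either *Cx3cr1* +/+ (WT) or *Cx3cr1* eGFP/eGFP (KO, with an eGFP insertion disrupting both copies of this chemokine receptor gene). The mice were littermates, and cells were sorted as CD11b+CD45lo. By the labels and the study's methods, each library came from a pool of 3 mice of 1 sex, with 1 female and 1 male pool per genotype and mark, which sets n = 2 pools for each genotype. Total reads ran from 11662185 to 44332626 per Rpb2 library, the deepest being the KO female, and from 10395804 to 21134403 per H3K27Ac library. The Rpb2 library labelled WT female went against its label: at 3 Y-linked peaks it held 136 reads, where the WT male held 214, the KO female 0 and the KO male 266. In CPM of the reads near a TSS these were 178, 231, 0 and 191, so its level was close to that of the males. In H3K27Ac, both libraries labelled female held 0 reads at 4 such peaks. In the H3K27Ac WT female library, 15.9% of reads fell in peaks, against 61.1% to 65.3% in the other 3. All 10 microglia markers examined had an Rpb2 peak near their TSS, with a summed 3558 to 3654 CPM. No H3K27Ac peak was centred within 1000 bp of any of the 10. A wide peak can cover a start from a farther centre, so this does not show that they lacked acetylation. Whether such peaks covered these starts was not tested. Of 5 markers each, neurons, monocytes with neutrophils, and T with B cells had none in either mark. Of 5 markers each, 1 of oligodendrocytes (*Mbp*, 29.2 to 141 CPM), 1 of astrocytes (*Slc1a3*, 59.1 to 90.7 CPM) and 1 of endothelium (*Pecam1*, 32.8 to 65.1 CPM) had an Rpb2 peak, and the other 4 of each type had none. *Mbp* and *Pecam1* were highest in the library labelled WT female. In H3K27Ac, the same 3 genes and *Mog* of oligodendrocytes had a peak, with sums by type of 69.0 to 134 CPM. The part of these markers in the results was not tested. In pooled cells, a weaker signal in every cell and a signal in fewer cells cannot be told apart.

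Noncoding RNA genes make transcripts that work without being translated. Long noncoding RNAs such as *Malat1* and *Neat1* are made by polymerase II and stay in the nucleus, where the latter builds paraspeckles. Host genes of small nucleolar RNAs (the *Snhg* genes and *Gas5*) carry guide RNAs for ribosomal RNA modification in their introns, and their transcripts start in a pyrimidine-rich motif shared with ribosomal protein mRNAs. Most small nuclear RNAs of the spliceosome are also made by polymerase II, while other small RNAs, such as the RNA of RNase P, are made by polymerase III, which has no Rpb2. Many long noncoding RNAs start next to a coding gene and run the opposite way from a shared promoter.

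Promoter windows from 250 bases before to 50 bases after the annotated start were taken from RefSeq on GRCm38.p6, the assembly also called mm10, and matched by gene to 301 of the 416 Rpb2 peaks and 335 of the 460 H3K27Ac peaks. Shared promoters are shown first, since the window of many members also holds the start of a coding gene that runs the other way. In 3 of them, chosen for their values or their class, the bases between both starts are in capitals. That stretch is 207 bases to the start of *Taf4* for 4921531C22Rik (chr2:179976603-179976902, plus strand), 155 bases to that of *Rad54l* for 2510003B16Rik (chr4:116123590-116123889, plus strand) and 118 bases to that of *Slc3a2* for *Snhg1* (chr19:8723237-8723536, plus strand).
4921531C22Rik: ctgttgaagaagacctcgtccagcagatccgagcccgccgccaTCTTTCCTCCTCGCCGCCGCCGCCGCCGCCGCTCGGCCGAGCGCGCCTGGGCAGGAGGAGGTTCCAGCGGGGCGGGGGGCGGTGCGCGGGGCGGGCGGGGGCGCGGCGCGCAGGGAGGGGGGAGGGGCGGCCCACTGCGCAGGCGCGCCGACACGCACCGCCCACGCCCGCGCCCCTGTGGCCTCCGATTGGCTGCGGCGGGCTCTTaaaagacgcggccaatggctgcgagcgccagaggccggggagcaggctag
2510003B16Rik: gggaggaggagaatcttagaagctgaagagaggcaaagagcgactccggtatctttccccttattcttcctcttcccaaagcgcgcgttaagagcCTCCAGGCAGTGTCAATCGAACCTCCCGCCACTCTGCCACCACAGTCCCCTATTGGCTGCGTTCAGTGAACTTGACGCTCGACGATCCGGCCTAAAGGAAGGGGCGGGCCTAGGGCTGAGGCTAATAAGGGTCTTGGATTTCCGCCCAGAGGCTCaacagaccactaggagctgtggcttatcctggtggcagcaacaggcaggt
Snhg1: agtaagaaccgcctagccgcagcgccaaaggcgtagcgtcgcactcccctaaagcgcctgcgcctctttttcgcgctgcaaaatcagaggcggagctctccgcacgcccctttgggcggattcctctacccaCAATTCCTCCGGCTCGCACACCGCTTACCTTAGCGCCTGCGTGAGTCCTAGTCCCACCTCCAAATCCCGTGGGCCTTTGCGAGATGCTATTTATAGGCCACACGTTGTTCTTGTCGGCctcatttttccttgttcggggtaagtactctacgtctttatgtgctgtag

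The snoRNA host genes *Snhg8* (chr3:123508287-123508586, minus strand) and *Snhg5* (chr9:88522848-88523147, minus strand) are shown because both carry a TATAAA and a pyrimidine run near the start. They do not stand for every gene of the class, of which 4 of 13 windows hold such a TATAAA. Capitals mark the letters TATAAA, which begin 30 bases before the *Snhg8* start and 23 bases before that of *Snhg5*, and a run of 7 pyrimidines, from base −1 in *Snhg8* and from base +8 in *Snhg5*.
Snhg8: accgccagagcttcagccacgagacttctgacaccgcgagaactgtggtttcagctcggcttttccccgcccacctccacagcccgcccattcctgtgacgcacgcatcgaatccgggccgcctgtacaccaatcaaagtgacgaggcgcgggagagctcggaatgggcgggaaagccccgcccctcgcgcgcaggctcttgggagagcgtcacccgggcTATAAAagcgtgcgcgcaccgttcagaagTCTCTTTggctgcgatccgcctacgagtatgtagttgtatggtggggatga
Snhg5: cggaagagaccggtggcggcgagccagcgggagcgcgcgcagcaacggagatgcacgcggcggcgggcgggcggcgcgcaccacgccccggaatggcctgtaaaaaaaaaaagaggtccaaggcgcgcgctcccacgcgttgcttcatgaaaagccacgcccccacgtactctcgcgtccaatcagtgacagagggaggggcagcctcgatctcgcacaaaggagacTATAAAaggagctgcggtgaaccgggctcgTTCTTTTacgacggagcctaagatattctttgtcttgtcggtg

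*Malat1* (chr19:5802623-5802922, minus strand) had the strongest Rpb2 signal and *Lncpint* (chr6:31218425-31218724, minus strand) is shown for its values in KO. Capitals mark the bases of the window that lie under the Rpb2 peak, 116 of them for *Malat1* and 254 for *Lncpint*.
Malat1: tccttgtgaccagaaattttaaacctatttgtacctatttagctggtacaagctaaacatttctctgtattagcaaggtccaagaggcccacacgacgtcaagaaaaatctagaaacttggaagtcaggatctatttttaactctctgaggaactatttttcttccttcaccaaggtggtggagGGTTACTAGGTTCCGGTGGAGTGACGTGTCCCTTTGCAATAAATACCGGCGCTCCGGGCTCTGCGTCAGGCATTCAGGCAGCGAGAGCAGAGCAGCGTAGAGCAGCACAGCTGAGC
Lncpint: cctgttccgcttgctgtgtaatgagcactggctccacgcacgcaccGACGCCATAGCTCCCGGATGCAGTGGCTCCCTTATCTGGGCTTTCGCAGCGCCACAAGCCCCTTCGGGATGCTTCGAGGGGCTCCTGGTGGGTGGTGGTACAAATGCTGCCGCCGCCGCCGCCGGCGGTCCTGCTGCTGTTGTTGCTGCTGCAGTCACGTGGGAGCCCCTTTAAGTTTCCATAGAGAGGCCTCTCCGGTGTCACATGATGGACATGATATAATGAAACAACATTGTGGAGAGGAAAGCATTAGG

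*Xist* (chrX:103483184-103483483, minus strand), the RNA that coats the inactive X chromosome of female cells, had an H3K27Ac peak in the libraries labelled female. Capitals mark matches to AAGATGG (YY1), TATAAA and CCAAT on either strand, which begin 138, 115 and 89 bases before the start.
Xist: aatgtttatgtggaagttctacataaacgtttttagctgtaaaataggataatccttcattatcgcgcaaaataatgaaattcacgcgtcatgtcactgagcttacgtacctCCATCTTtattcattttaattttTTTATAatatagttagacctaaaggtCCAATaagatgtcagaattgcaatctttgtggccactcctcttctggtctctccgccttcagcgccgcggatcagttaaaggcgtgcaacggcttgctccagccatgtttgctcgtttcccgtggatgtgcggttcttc

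The windows of the members were rich in CpG. The ratio of observed to expected CpG was at least 0.6 in 71.1% of 266 distinct windows of Rpb2 members, beside 47.7% of 21263 windows of protein-coding genes and 14.0% of 11588 windows of other genes in the same table. Promoters that lie head-to-head with a coding gene, starting within 1000 bp of it and running the other way, reached 91.6% of 107 windows, those with no coding start nearby 52.9% of 119, and the snoRNA host genes 13 of 13. Of 9 motifs searched on both strands, the GC box GGGCGG, the site of SP and KLF factors, was in 60.5% of Rpb2 member windows and 35.7% of all 32851 windows. The ETS family site CCGGAAG was in 15.8% against 8.86%, and the E-box CACGTG of USF and MYC factors in 13.2% against 7.15%. CCAAT was in 39.8% against 37.4%, TATAAA in 6.77% against 13.6%, AAGATGG in 7.14% against 6.34%, and GAGGAAGT, the site of the myeloid factor PU.1, in 4.14% against 3.20%. TGACGTCA (CREB) was in 3.01% against 1.79%, and GCGCATGCG (NRF1) in 3.38% against 1.75%. Windows of protein-coding genes alone held GGGCGG in 46.2%, CCGGAAG in 11.6%, CACGTG in 7.84% and TATAAA in 12.6%. They held TGACGTCA in 2.23% and GCGCATGCG in 2.35%. No motif searched contains another. Within the 50 bases before the start, TATAAA occurred in 4 of 13 snoRNA host genes, in 2.63% of the Rpb2 member windows and in 2.63% of all windows. A run of at least 7 pyrimidines lay at the start in 46.2% of the snoRNA host windows, 21.1% of Rpb2 member windows and 16.3% of all windows. These are counts of letters in fixed windows, and windows that cover neighbouring starts share bases.

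In Rpb2 level, the medians of noncoding and protein-coding promoters differed by less than the spread between libraries, and in H3K27Ac the noncoding median was lower. Levels are given as CPM per kb, read counts scaled by what each library holds in all peaks within 1000 bp of a TSS, with TMM factors, and by peak width. In the order library labelled WT female, WT male, KO female, KO male, which is kept throughout, the median Rpb2 level of the members was 272, 289, 282 and 289 CPM per kb. That of the 9592 protein-coding promoter peaks was 281, 286, 278 and 271 CPM per kb. The log2 ratio of noncoding to coding medians was 0.02 ± 0.06 (SD, n = 4 libraries; exact sign-flip permutation test, two-sided p = 0.625, where 4 libraries allow no p under 0.05, the smallest being 0.13), and 0.04 without the library labelled WT female. Member levels ran from 45.1 to 5284 CPM per kb, and 43 of 416 (10.3%) lay in the uppermost 10% of all peaks near a TSS. H3K27Ac medians of the members were 34.5, 31.2, 31.6 and 32.0 CPM per kb against 38.4, 35.9, 36.1 and 36.3 CPM per kb at the protein-coding promoters. The members lay lower in all 4 libraries, with a log2 ratio of −0.18 ± 0.02 (SD, n = 4; exact sign-flip p = 0.13, the smallest possible). Among peaks found in the lists of both genotypes, that log2 ratio was −0.0053 (exact p = 0.75).

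By type, the 2 snRNA peaks stood highest, with a median of 3572, 3117, 3351 and 3293 CPM per kb of Rpb2. *Rnu11*, the U11 RNA of the minor spliceosome, was at 5191, 4474, 4613 and 5019.8 CPM per kb and *Rnu12*, its partner U12, at 1954, 1759, 2088 and 1566 CPM per kb. The KO and WT pools overlapped at both genes. *Scarna2*, which guides modification of spliceosomal RNAs in Cajal bodies, was at 1465, 1838, 1994 and 1876 CPM per kb, lowest in the library labelled WT female. Lower levels were seen at *Terc*, the RNA template of telomerase, with 429, 486, 394 and 459 CPM per kb, and at the vault RNA gene *Vaultrc5*, with 494, 567, 749 and 492 CPM per kb. The scRNA type was 1 gene, *Mascrna*, a tRNA-like RNA cut from the end of *Malat1*; its 2 peaks held medians of 237, 211, 230 and 262 CPM per kb. Together, 7 of 24 listed small structured RNAs had a member peak for Rpb2 (median 575 CPM per kb, 6 above the median of all peaks near a TSS) and 5 had one for H3K27Ac (median 47.5 CPM per kb). *Rpph1*, the RNA of RNase P, had an H3K27Ac peak of 27.5, 67.3, 40.8 and 54.3 CPM per kb, lowest in the WT female library, and its start lies 70 bp from that of *Parp2*. *Rn4.5s*, the single rRNA-type member, had 9, 2, 17 and 12 H3K27Ac reads.

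Among long noncoding RNAs, *Malat1* had the highest Rpb2 level of all 10125 peaks near a TSS, coding ones included. It was at 4669.7, 4858, 5897 and 5711 CPM per kb, and both KO pools lay above both WT pools. 2410006H16Rik was at 2309, 2044, 2361 and 2681 CPM per kb and *Gt(ROSA)26Sor*, the locus widely used to insert transgenes, at 1922, 1929, 1951 and 2351 CPM per kb. *Neat1*, at a lower level than several other ncRNA peaks, was at 642, 893, 1269 and 2060.1 CPM per kb. Of the 24 listed nuclear and imprinted RNAs, 10 had a member Rpb2 peak, with a median of 489 CPM per kb, and 6 of them lay above the median of all peaks near a TSS. The low end held *Kcnq1ot1*, the paternally expressed antisense RNA of an imprinted cluster, at 72.6, 164, 177 and 203 CPM per kb, and *Pvt1*, a neighbour of *Myc*, at 127, 136, 67.5 and 196 CPM per kb. Of the 6 RNAs on the list named immune, 2 had one, *Zeb2os* at 673, 645, 1210.5 and 667 and *Trp53cor1* at 384, 537, 618 and 534 CPM per kb.

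Host genes of snoRNAs were strongly bound. Of 22 listed, 16 had a member Rpb2 peak, with a median of 667 CPM per kb, and 15 of the 16 lay above the median of all peaks near a TSS. *Snhg8* was at 2047, 2409.8, 2772 and 2057 CPM per kb, with the KO female highest. *Gas5* was at 1872, 1921, 1645 and 1679 CPM per kb and *Snhg12* at 1284, 1548, 1494 and 1393 CPM per kb. *Snhg5* was at 990.4, 997, 1113 and 928 CPM per kb, a narrow range over the 4 libraries. The lowest was *Snhg10*, at 419, 192, 106 and 253 CPM per kb. For H3K27Ac, 14 of the 22 had a member peak, with a median of 43.9 CPM per kb, and 8 lay above the median of all peaks near a TSS.

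**Figure D1:**
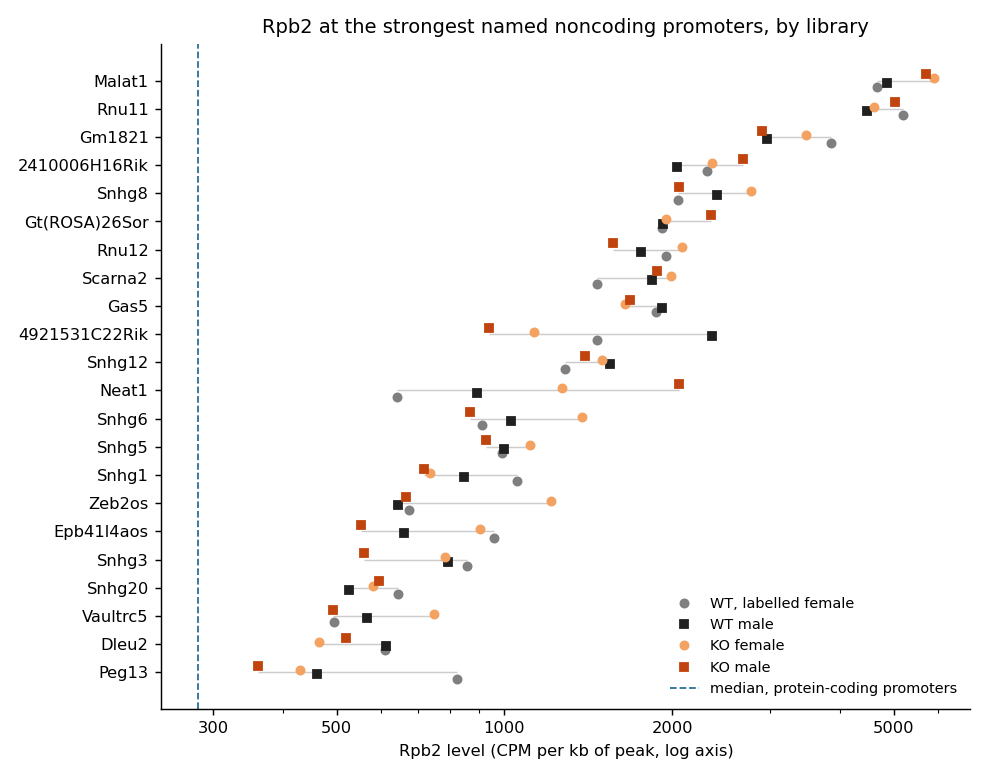
Rpb2 levels (CPM per kb of peak, log axis) of 22 named noncoding promoters, 1 row per gene with 1 point per library; grey lines span the 4 libraries and the dashed line is the median of protein-coding promoters. *Malat1* and *Rnu11* lie farthest right, and every point lies to the right of the dashed line. The points of the genotypes lie apart at several genes, such as *Neat1*, 4921531C22Rik, *Malat1* and *Gas5*. Over all peaks near a TSS, both KO pools lay above both WT pools at 21.7% and below them at 20.4%.

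Pseudogene peaks need care, because part of them carry the name of a gene that lies elsewhere. Of 35 Rpb2 pseudogene peaks, 10 are named for a pseudogene that RefSeq places on another chromosome, and their centres lie 0 to 201 bp (median 17 bp) from the start of a protein-coding gene. *Gm1821*, behind only *Malat1* and *Rnu11* among the members, was at 3858, 2958, 3478 and 2894 CPM per kb; its peak on chromosome 11 has its centre 148 bp from the start of *Ubb*, a polyubiquitin gene, while *Gm1821* lies on chromosome 14. The peak named *Gm5643* (1124 CPM per kb on average) has its centre at the start of *Hnrnpa1* and that named *Gm6793* (903 CPM per kb) lies 1 bp from the start of *Hnrnpa3*; both encode nuclear RNA-binding proteins. For *Oaz1-ps* (812 CPM per kb) it is *Oaz1*, the antizyme that restrains polyamine synthesis, at 5 bp. All 377 ncRNA-type Rpb2 peaks lie on the chromosome of their gene. The median of all 35 pseudogene peaks was 263, 255, 258 and 234 CPM per kb. For H3K27Ac, 2 of 37 pseudogene peaks on named chromosomes carry such a name.

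The neighbourhood of a coding start divided the members. Of the 416 Rpb2 peaks, 145 (34.9%) belonged to a gene whose start lies head-to-head with a protein-coding start, within 1000 bp and running the other way without overlap. A further 52 (12.5%) overlapped a coding gene antisense and 7 lay beside a coding start on the same strand. For 194 (46.6%) there was no coding start of another gene within 1000 bp, and for 18 the start could not be matched. In both marks, coding starts annotated under the member's own name were not counted. An example is 1500011B03Rik, whose Rpb2 peak centre lies 87 bp from such a start. The gap between head-to-head starts had a median of 144 bp, and 114 of 145 (78.6%) gaps were at most 300 bp. In 29 of the 145 (20.0%), the centre of the peak lay nearer to the coding start than to the noncoding one, and a signal over a shared promoter cannot be divided between its genes. Of the H3K27Ac peaks, 111 (24.1%) were head-to-head, with a median gap of 123 bp, and 296 (64.3%) had no coding start nearby.

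Head-to-head promoters carried more of both marks than noncoding promoters standing alone. Their median Rpb2 level was 313, 327, 340 and 324 CPM per kb, against 253, 247, 274 and 265 CPM per kb where no coding start was nearby. They were higher in 4 of 4 libraries, a mean ratio of 1.26 (log2 0.33 ± 0.05 SD, n = 4; exact sign-flip p = 0.13, the smallest possible). Without the library labelled WT female the log2 ratio was 0.34. For H3K27Ac, the medians were 43.4, 43.3, 43.8 and 45.1 against 32.6, 26.6, 24.0 and 27.1 CPM per kb, a ratio of 1.60 (log2 0.68 ± 0.19; exact p = 0.13). Among peaks found in the lists of both genotypes, the log2 ratios fell to 0.14 for Rpb2 and 0.27 for H3K27Ac, still higher in 4 of 4 libraries. Members with no coding start within 1000 bp of the peak had a log2 ratio to protein-coding promoters of −0.15 for Rpb2 and −0.40 for H3K27Ac, lower in 4 of 4 libraries each (exact p = 0.13).

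**Figure D2:**
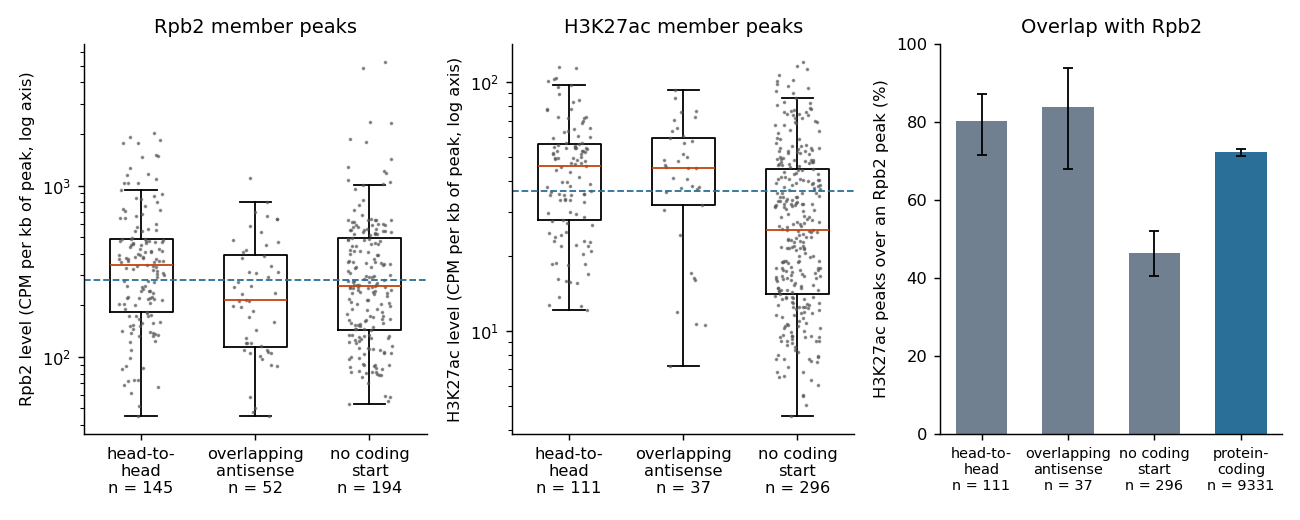
The left and middle panels show the levels of member peaks (CPM per kb, log axis; a point per peak, boxes with median and quartiles, whiskers to 1.5 times the box) by the nearest coding start, with the median of protein-coding promoters dashed. The right panel shows the share of H3K27Ac peaks over an Rpb2 peak with exact 95% binomial intervals, 80.2%, 83.8% and 46.3% for the 3 groups of members and 72.2% for coding promoters.

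Nearly every polymerase-bound noncoding promoter lay in acetylated chromatin. An H3K27Ac peak overlapped 407 of 416 Rpb2 members (97.8%, exact 95% interval 95.9% to 99.0%), beside 98.6% of protein-coding promoter peaks. The overlapping H3K27Ac peak was named for the same gene in 290 cases (69.7%), for a protein-coding gene in 112 (26.9%) and for another noncoding gene in 5. Of the 9 Rpb2 members without one, 8 lay under the median level of all peaks near a TSS, and 7 had their centre 680 bp or more from the TSS. The strongest was the *Mascrna* peak 680 bp from its start, at 405, 370.0, 325 and 357 CPM per kb. It was followed by 1700120K04Rik at 167 CPM per kb and *Gm38426* at 106 CPM per kb on average. Among them was *Flicr*, a regulator of *Foxp3* known from T cells, with 37, 15, 141 and 42 reads. *Gm38426*, *Flicr*, *Gm15708* and *G6bos* did have an H3K27Ac member peak, at 47.6, 16.9, 19.8 and 30.9 CPM per kb on average. At these genes, only the Rpb2 peak given here lay outside it.

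The reverse did not hold to the same extent. Of 460 H3K27Ac members, 267 (58.0%, interval 53.4% to 62.6%) overlapped an Rpb2 peak, beside 72.2% of protein-coding promoter peaks (intervals cover counting error only). The share was 80.2% (71.5% to 87.1%) at head-to-head promoters and 46.3% (40.5% to 52.1%) where no coding start was near. Members with Rpb2 were stronger and broader, with a median of 47.5 CPM per kb and 2166 bp, against 16.1 CPM per kb and 806 bp in the 193 without. CpG-rich windows made up 71.9% of the former and 28.1% of the latter. In total, 216 genes had a member peak in both marks, 59.8% of the Rpb2 genes and 47.7% of the H3K27Ac genes. Levels of both marks in these genes had a Spearman's rho of 0.487, and of 0.577 over 6432 protein-coding genes; genes are not replicates and share libraries and depth, so no test was made.

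The strongest H3K27Ac members were a different set. *Pisd-ps3*, a pseudogene peak on an unplaced contig, stood alone at 1162, 367, 535 and 506 CPM per kb, highest in the weakly enriched WT female library; the gene has copies elsewhere, so its reads are uncertain. B330016D10Rik was at 108, 122, 141 and 112 CPM per kb and 1700113A16Rik at 85.3, 149.8, 122 and 109 CPM per kb. *Arhgap27os3*, head-to-head with *Arhgap27*, was at 78.0, 133, 123 and 126 and 4930526I15Rik, head-to-head with *Ppp2r3d*, at 96.7, 122, 119 and 119 CPM per kb. The WT female library was the lowest of the 4 at each of these 4 genes. *Dleu2*, which hosts microRNAs that restrain the cell cycle, was at 65.4, 114, 106 and 106 CPM per kb in a domain of 11023 bp, and *Malat1* at 48.1, 88.7, 75.8 and 81.7 CPM per kb in a domain of 14815 bp. *Xist* had 85, 0, 221 and 0 H3K27Ac reads, present in both libraries labelled female and at 0 in both males, and no Rpb2 peak was named for it.

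KO and WT microglia were then compared at each member to ask whether loss of *Cx3cr1* alters polymerase or acetylation at noncoding genes. For Rpb2, edgeR's quasi-likelihood test put 0 of 416 members under an adjusted p of 0.05 (background 0%), and the lowest adjusted p of a member was 0.129. Without adjustment, 30 members (7.21%) had a p under 0.05, beside 10.6% of all 10125 peaks near a TSS; 19 were higher and 11 lower in KO. Without the library labelled WT female, 9 members were called (5 higher and 4 lower in KO), where 2.34% of all peaks were. DESeq2 called 1 member, limma voom 1 and edgeR's newer quasi-likelihood method 1, where 0.198%, 0.277% and 0.356% of all peaks near a TSS were called. They put 29, 37 and 41 members at an unadjusted p under 0.05, for which no share over all peaks was taken. Both KO pools lay above both WT pools at 107 members (25.7%, background 21.7%) and below them at 70 (16.8%, background 20.4%). The median log2 fold change (KO over WT) stood at 0.11 over the members and 0.02 over all peaks near a TSS, and 248 members were higher and 168 lower in KO. The difference of these medians, 0.09, turned to −0.05 when all peaks of the table entered the fit. The median itself was 0.12 for the 377 ncRNA peaks and −0.08 for the 35 pseudogene peaks. P-values here measure only the spread between these pools. On simulated counts, this fit found 19 of 100 2-fold changes and 70 of 100 4-fold changes. A count of 0 called members therefore does not show that Rpb2 was unchanged.

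*Gm9958* had the lowest p. It starts 420 bp from *Ankrd17* and runs the other way, and its peak held 119.8, 198, 43.6 and 57.6 CPM, with the KO pools under either WT pool. KO minus WT was −1.66 ± 0.39 on the log2 scale (SE; edgeR's adjusted p = 0.129). DESeq2 gave an adjusted p of 0.0429, limma voom 0.0266 and edgeR's newer method 0.0229, and edgeR's adjusted p was 0.00255 without the library labelled WT female and 0.0789 to 0.288 without any 1 of the others. It was the member called by each of the 3 other tools, which use the same libraries. The *Gm9958* peak came from the WT list alone, so it was chosen by a call in WT.

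*Neat1* and *Lncpint* lay on the other side. *Neat1* was at 141, 196, 278 and 451 CPM, higher in both KO pools, with a log2 difference of 1.11 ± 0.27 (SE; edgeR's adjusted p = 0.146). It was past the threshold without the WT male (adjusted p = 0.00898) and without the KO female (0.0083). Without the KO male the log2 difference was 0.72 (adjusted p = 0.672), and without the library labelled WT female 0.89 (0.0818). *Lncpint*, a long noncoding RNA induced by p53, was at 99.0, 71.0, 145 and 267 CPM, higher in KO with a log2 difference of 1.27 ± 0.35 (SE; edgeR's adjusted p = 0.208). Without the library labelled WT female its adjusted p was 0.0174, and without the KO female 0.0499. Without the KO male the log2 difference was 0.77 (adjusted p = 0.804), and without the WT male 1.05 (0.181). Each fit without a library leaves 1 genotype with a single pool, which is assumed to vary like the pools of the other. The *Lncpint* peak came from the KO list alone, and that of *Malat1*, given next, from the WT list alone. *Malat1*, at 934, 972, 1179 and 1142 CPM, had a log2 difference of 0.28 ± 0.14 (SE; edgeR's adjusted p = 0.487), with the pools of the genotypes apart.

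Among head-to-head members, 4921531C22Rik, which shares its promoter with the TFIID subunit gene *Taf4*, was at 311, 499, 239.8 and 199 CPM. KO minus WT was −0.88 ± 0.25 on the log2 scale (SE; edgeR's adjusted p = 0.208). It was −1.18 without the library labelled WT female (adjusted p = 0.00333) and −0.50 without the WT male (0.512). 2510003B16Rik, opposite the DNA repair gene *Rad54l*, held 3, 0, 97 and 29 reads (adjusted p = 0.224, 0.0071 without the library labelled WT female and 0.219 to 0.704 without any 1 of the others), and no fold is given against so few WT reads. The centres of both peaks lie downstream of the noncoding start, by 59 and 52 bp. The peak of 2510003B16Rik came from the KO list alone. *Snhg1* was at 247, 199, 173 and 169 CPM, a log2 fold change of −0.38 (adjusted p = 0.666), and *Gas5* at 432, 444, 379.9 and 388 CPM, a log2 fold change of −0.19 (adjusted p = 0.783). Of the 16 snoRNA hosts, 9 had a value above 0 and 7 below it, with a median log2 fold change of 0.02 and none past the threshold. *Peg13*, an imprinted RNA of the paternal allele, was at 185, 104, 96.5 and 81.1 CPM, a log2 fold change of −0.69 (adjusted p = 0.515), with the library labelled WT female above the other 3. Of the 10 nuclear and imprinted RNAs, 7 lay above 0 and 3 below, with a median of 0.22 and none past the threshold. *Zeb2os* and *Trp53cor1*, and 3 of 7 small structured RNAs, lay above 0, none past the threshold.

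**Figure D3:**
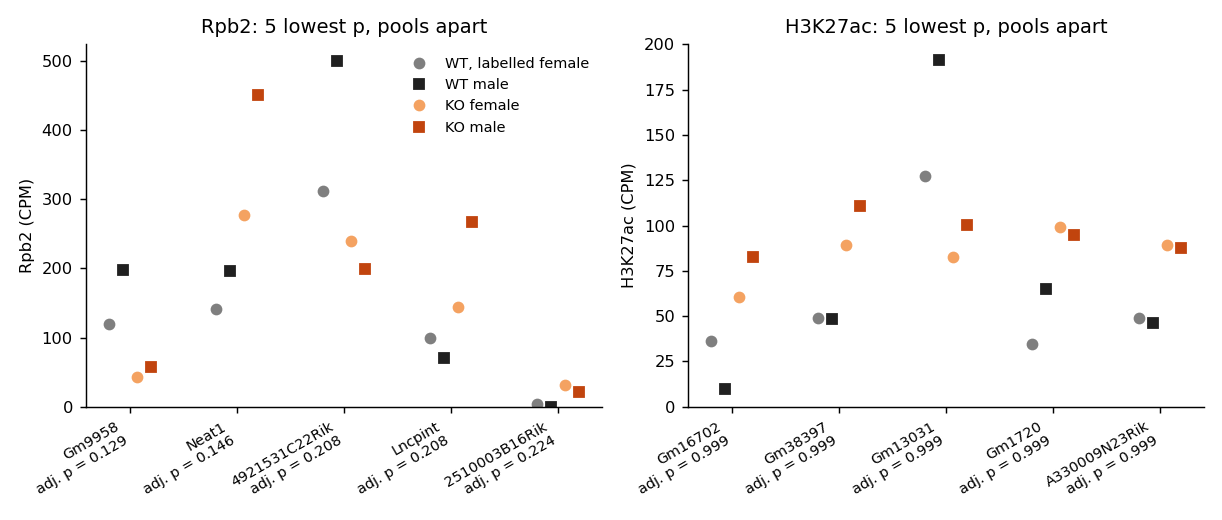
CPM in each of the 4 libraries at the 5 members with the lowest p among those whose pools do not overlap between genotypes, Rpb2 on the left and H3K27Ac on the right, with edgeR's adjusted p under each name. At *Neat1* and *Lncpint* the KO points lie above the WT points, at *Gm9958*, 4921531C22Rik and *Gm13031* below them, and no adjusted p is under 0.05.

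The sign of a fold change went mostly with the list a peak came from. Of the Rpb2 members, 225 (54.1%) were found in both genotypes' lists, 32 (7.69%) in the WT list alone and 159 (38.2%) in the KO list alone. Of the protein-coding promoter peaks, the shares were 55.7%, 8.57% and 35.7%. The median log2 fold change was 0.02 in both lists, −0.50 in the WT list alone and 0.42 in the KO list alone. In the WT list alone 28 peaks were lower and 4 higher in KO, and in the KO list alone 126 were higher and 33 lower. Peaks of 1 list were in that list because they were called in that genotype, so these values describe the lists and are no test. The KO list draws on the deepest Rpb2 library, with 44332626 reads, and depth and genotype cannot be told apart in it. Of the H3K27Ac members, both lists held 327 (71.1%), the WT list alone 48 (10.4%) and the KO list alone 85 (18.5%), beside 78.3%, 4.67% and 17.1% of protein-coding promoter peaks. All 48 of the WT list alone were lower in KO, while the KO list alone held 56 higher and 29 lower.

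**Figure D4:**
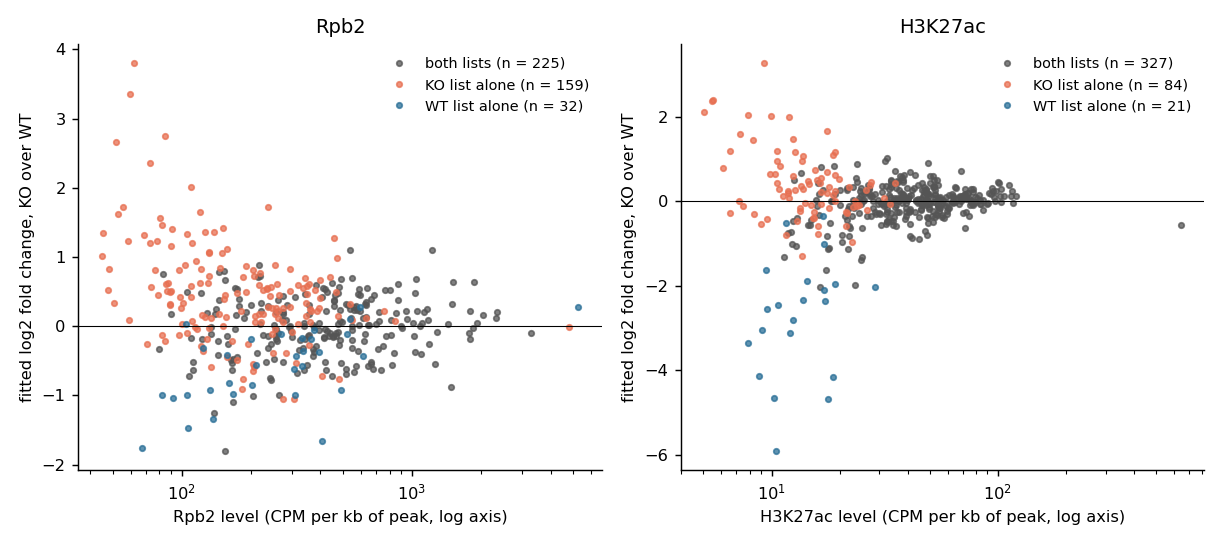
Fitted log2 fold change of KO over WT against level (CPM per kb, log axis), a point per member coloured by the list the peak came from; 28 H3K27Ac members with 0 reads in both pools of a genotype are not drawn. Peaks of both lists gather around 0 at the higher levels, and peaks of 1 list spread outward at low levels, mostly on the side of their own genotype; 33 Rpb2 and 29 H3K27Ac peaks of the KO list alone lie under 0.

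H3K27Ac at the members did not differ past the threshold either. On simulated counts, its fit found 7 of 100 2-fold changes and 55 of 100 4-fold changes, so this does not show that acetylation was unchanged. The quasi-likelihood test called 0 of 460 members (background 0%), as did DESeq2, limma voom and the newer quasi-likelihood method, and the lowest adjusted p was 0.999. At an unadjusted p under 0.05 there were 21 members (4.57%, background 3.88%), 8 higher and 13 lower in KO. There were 47 with DESeq2, 14 with limma voom and 28 with the newer method, for which no share over all peaks was taken. Both KO pools lay above both WT pools at 62 members (13.5%, background 16.4%) and below them at 63 (13.7%, background 15.2%). The median log2 fold change was −0.0015 over the members and −0.0036 over all 9904 peaks tested. Leaving out either WT library changed the calls, both at members and at other peaks near a TSS. Without the WT female, the median log2 fold change was 0 over the members and 0.02 over all peaks. Without the WT male, these medians were 0.0082 and −0.0030. In the latter fit the weakly enriched WT female stands alone for WT and is assumed to vary like the other group.

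*Gm16702*, with the lowest p among members whose pools did not overlap, was at 36.3, 9.87, 60.3 and 82.5 CPM, higher in KO with a log2 difference of 1.67 ± 0.52 (SE; edgeR's adjusted p = 0.999). The log2 difference was 2.84 without the WT female (adjusted p = 0.0179) and 0.97 without the WT male (0.223). *Gm38397*, at 49.1, 48.2, 89.0 and 111 CPM, had a log2 fold change of 1.04, and *Gm1720*, at 34.5, 65.1, 99.3 and 94.9 CPM, one of 0.94. Without the WT male the value of *Gm1720* was 1.49 (adjusted p = 0.0361) and without the WT female 0.57 (0.451). *Gm13031* was lower in both KO pools, at 127, 191, 82.9 and 100.3 CPM (log2 fold change −0.80). What these 4 RNAs do is not given in the sources used here. The *Gm16702* peak came from the KO list alone. A330009N23Rik, 67 bp from the start of *Grasp*, was at 49.1, 46.5, 89.5 and 87.4 CPM, a log2 fold change of 0.89, and its KO pools were nearly equal, as were its WT pools.

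Of the listed genes, *Dancr* and 1110038B12Rik, both snoRNA hosts, had an unadjusted p under 0.05. *Dancr* was at 78.1, 81.3, 46.6 and 39.5 CPM, a log2 fold change of −0.89, and 1110038B12Rik at 99.9, 36.6, 125 and 128 CPM, one of 0.91. For 1110038B12Rik this was 1.78 without the WT female (adjusted p = 0.0281) and 0.34 without the WT male (0.598). Of the 14 snoRNA hosts with an H3K27Ac peak, 7 lay above 0 and 7 below, with a median log2 fold change of 0.04. *Neat1*, whose Rpb2 level lay higher in both KO pools, was at 477, 737, 746 and 747 CPM in H3K27Ac, a log2 fold change of 0.30 with the WT female lowest (adjusted p = 0.999). It was 0.65 without the WT male (adjusted p = 0.000845) and 0.01 without the WT female (0.977). At *Malat1* (713, 1314, 1122 and 1210.2 CPM) and *Dleu2* (720.4, 1259, 1173 and 1166 CPM), log2 fold changes of 0.20 and 0.24 turned to −0.18 and −0.11 without the WT female, and were 0.71 and 0.70 without the WT male. At *Lncpint*, H3K27Ac was 484, 684, 513 and 585 CPM and the pools of the genotypes overlapped.

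A group of 27 H3K27Ac members (5.87%) had 0 reads in both KO pools, beside 152 (1.63%) of the protein-coding promoter peaks and 17.2% of all 55862 peaks. All 27 came from the WT list alone, none had a coding start within 1000 bp or overlapped an Rpb2 peak, and 24 were 500 bp wide. The WT female library held 10 to 48 reads in them (median 20), and in 23 of 27 the WT male also had 0. *Gm3363* held 48 and 0 reads in WT, *Hotairm2* of the Hoxa cluster 36 and 0, and *Gm20619* 33 and 2. The other 3 with reads in the WT male were 1700080N15Rik (18 and 17), 1700007P06Rik (17 and 6) and E330011O21Rik (17 and 1). Also in the group were *Pax6os1*, antisense to the eye and brain transcription factor gene *Pax6* (25 and 0), and *Srrm4os* (22 and 0). Because these 27 were taken for having no KO read, a p of KO against WT is no test of them. Their lowest adjusted p in edgeR was 0.999. The reads sit in the library with the fewest reads in peaks, and whether that library or the genotype gives them was not tested. In the opposite direction, 1 member, 2410017I17Rik, had 0 reads in both WT pools.

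**Figure D5:**
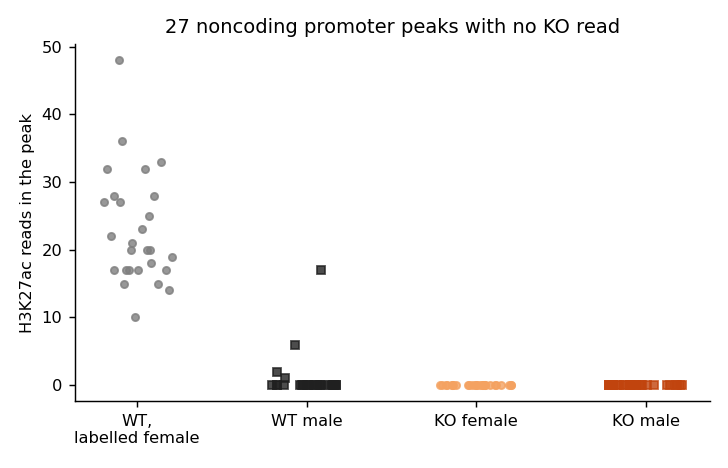
H3K27Ac reads of 27 noncoding promoter peaks with no read in either KO pool, a point per peak and library, spread sideways for legibility. The WT female library holds 10 to 48 reads, the WT male holds 0 in 23 of the 27 and at most 17, and both KO libraries lie at 0.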

How the data were processed

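Microglia of WT and KO mice were assayed by ChIP-seq in 12 samples, of which the 4 inputs were not used here. The authors aligned 51-nt reads to mm10 with Bowtie 2, kept unique alignments, called peaks with HOMER, retained those reproducible between pools and merged the lists of the genotypes. They deposited the raw counts of reads for every merged peak, not normalized. Columns left unused numbered 0.

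Peaks within 1000 bp of a TSS averaging 4 or more reads in 1 genotype (10125 for Rpb2, 9904 for H3K27Ac) were fitted by genotype with edgeR 4.0.16 in R 4.3.3 (glmQLFTest, TMM, Benjamini-Hochberg), and members were read from that fit. Alternatives used DESeq2 1.42.0, limma 3.58.1, other scalings, filters and members, a sex block, and each library left out. Levels were compared by an exact sign-flip test over 4 libraries. Coding starts came from the GENCODE annotation. The members' own starts and the promoter windows came from RefSeq on GRCm38.p6. Chromosome names and lengths were checked. Steps were tested on simulated data. Python 3.11.15 was used. Named were genes of 4 fixed lists, the 5 strongest and the 5 lowest-p non-overlapping peaks per mark, rare types, and others chosen after their values were seen. Members and lists were chosen with earlier results of these data known.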

Additional observations from a re-analysis of the deposited data

How the results depend on the processing

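The counts of called members moved most. For Rpb2, where edgeR's quasi-likelihood test called 0 members, DESeq2 called 1, limma voom 1 and the newer quasi-likelihood method, chosen after seeing the data, 1; with a library left out the number ran from 0 without the KO male to 9 without the library labelled WT female. For H3K27Ac it ran from 0 to 30 with a library left out, being 30 without the WT male. The H3K27Ac fits without a WT library also called peaks outside the members, and each leaves WT with a single pool. Their counts of called members therefore do not set noncoding promoters apart from other promoters. Total reads as library sizes raised the median log2 fold change of all peaks to 0.22 for Rpb2 and 0.79 for H3K27Ac. Named genes were read relative to that median.

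Sex as a replicate block gave 2 Rpb2 members, *Gm9958* and *Neat1*, where 0.237% of all Rpb2 peaks near a TSS were called. It gave 0 H3K27Ac members. Differences between the female and the male pool correlated between WT and KO with an r of 0.131 over Rpb2 members and 0.0371 over H3K27Ac members (0.00012 and 0.0355 over all peaks tested), so pools of a sex share a label and no pairing was assumed. For Rpb2, the block and this r rest on the label of the WT female library, which holds Y-linked reads at 178 CPM.

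Levels depended on which peaks were taken. With no coding start nearby, the log2 ratio of noncoding to coding medians was −0.15 for Rpb2 and −0.40 for H3K27Ac; for H3K27Ac it was −0.38 without division by width and −0.0053 among peaks of both lists. The log2 ratio of head-to-head promoters to those alone was 0.14 for Rpb2 and 0.27 for H3K27Ac among peaks of both lists, and 1.39 for H3K27Ac without division by width. H3K27Ac peaks of both lists lay over 95.4% of Rpb2 members, any H3K27Ac peak over 99.4% of those within 500 bp of a TSS, and 77.7% of H3K27Ac members of both lists lay over Rpb2. The log2 fold change of H3K27Ac at *Malat1* was −0.011 with total reads and ran from −0.18 to 0.71 with a library left out, and that at *Dleu2* from −0.11 to 0.70. Of 274 refits of 20 named peaks, with *Neat1* and *Malat1* taken in both marks, 253 kept direction and side of the threshold, 18 went past it and 3 reversed. The cause of these shifts was not tested. Depth limited the weakest members, where 3 reads are the least told apart from 0.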

Other observations

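Annotation of the members has changed for some. RefSeq on GRCm38.p6 gives 7 genes of 8 Rpb2 members, and 6 genes of 6 H3K27Ac members, as protein-coding: 0610012G03Rik, 1500011K16Rik, 1810058I24Rik, BC029722, *Gm10033* and *Mfsd4b4* in both marks, and *Btbd19* in Rpb2. Rpb2 peaks of the members were 252 bp wide in the median (196 to 647 bp) and 67.3% had their centre within 250 bp of the TSS, beside 246 bp and 73.9% at protein-coding promoters. H3K27Ac peaks of the members were 1729 bp wide in the median, and the widest spanned 26774 bp. In Rpb2, 51 member genes had at least 2 peaks near the TSS, and in H3K27Ac 6 had.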
